A study of Oryza sativa with 12 samples.

Results

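TGMS-Co27 is a thermosensitive male-sterile rice line, and the comparison described here is between its florets in the fertile state, at low temperature (Co27LT), and in the sterile state, at high temperature (Co27HT). The arrays were chosen by their labels alone, 3 of Co27LT and 3 of Co27HT, which makes 6 of the 12 arrays of the series. The other 6 arrays, 3 of H1493LT and 3 of H1493HT, hold the wild-type cultivar H1493 under the same growth conditions and were used to show where TGMS-Co27 differed from its parent. RNA from inflorescences at the meiosis stage was hybridised to the Affymetrix rice GeneChip, on which each probe set gives 1 signal for a transcript.

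Co27LT and Co27HT are plants of the same transgenic line, raised separately in 2 environments. Both carry a construct derived from the UDP-glucose pyrophosphorylase gene Ugp1 behind a maize ubiquitin promoter, in the H1493 background, and in both the endogenous gene is cosuppressed. H1493LT and H1493HT carry no construct, and H1493 sets seed in both environments. The low-temperature plants grew at a daily average of 20 °C in winter at a southern site with shorter days, and the high-temperature plants grew at 28 °C in summer at another site with longer days. Temperature, day length, site and season therefore cannot be told apart, and the study does not state the hour of harvest. The samples were whole young inflorescences and not isolated anthers, the line is 1 transgenic line, and the number of plants pooled in a sample is not given in the sources used here, so the p-values measure the spread between the 3 samples of a group.

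Thermosensitive genic male-sterile lines form pollen at one temperature and abort it at another, which lets the same plants serve as a self-seeding stock or as the female parent of a hybrid. In the young anther, pollen mother cells enter meiosis inside a callose wall while the surrounding tapetum feeds them and later breaks down. UDP-glucose pyrophosphorylase makes UDP-glucose, the sugar donor for callose, cellulose and sucrose, and lines that lack Ugp1 product fail to deposit callose around the meiocytes. A MAS 5.0 signal is given here as log2, so that a difference of 1 is a change of 2-fold, and a probe set is called present, marginal or absent on each array from its matched and mismatched probes.

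The arrays of a group resembled each other closely. Over the 24891 probe sets that averaged a log2 signal of 6 or more on the 12 arrays, called bright here, the correlation between arrays of one group of TGMS-Co27 was between 0.983 and 0.989, and between Co27LT and Co27HT it was between 0.858 and 0.874. The detection calls gave 25933 to 26377 present probe sets on a Co27LT array and 25035 to 25622 on a Co27HT array, while the median log2 signal of all probe sets was 5.33 to 5.34 on Co27LT arrays and 5.51 to 5.74 on Co27HT arrays. The median within-group SD of a bright probe set was 0.0999 in Co27LT and 0.134 in Co27HT, and 3 arrays a group limit the precision of every mean.

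The stage on the label was checked against marker genes of the cell types that a young inflorescence can hold. Of the 7 meiocyte markers measured, 6 were present on all 6 arrays of TGMS-Co27, as were 5 of 8 tapetum markers and 5 of 5 stamen and lodicule markers. Of the 10 genes listed for late pollen only 2 were measured, and neither is read here as a sign of late pollen. The markers therefore do not show whether late pollen was present or missing. AP25 was present on all 6 arrays, at 12.74, 12.65 and 12.64 in Co27LT, against 13.33, 13.38 and 13.33 in Co27HT. The sucrose transporter gene SUT1 gave 8.775, 8.646 and 8.654 in Co27LT, against 9.395, 9.562 and 9.117 in Co27HT. SUT1 was not called present on any of these 6 arrays, but it was on all 6 arrays of H1493, with means of 9.065 in H1493LT and 9.423 in H1493HT. None of the 3 seed markers and 1 of the 5 vascular and root markers was present on every array. The summed linear signal of the meiocyte markers was 12459 to 12682 in Co27LT against 8143.2 to 8842.2 in Co27HT, that of the tapetum markers was 7061.7 to 7143.4 in Co27LT against 8610.6 to 8973.5 in Co27HT, and that of the stamen and lodicule markers was 11546.2 to 11702.7 in Co27LT against 18496.8 to 19713.2 in Co27HT. The widest gap was in the 4 green tissue markers, with 18085.9 to 18449.4 in Co27LT against 3497.4 to 3617.7 in Co27HT. Each sum mostly follows its brightest member. This was MEL1 (difference 0.46) for meiocytes, MSP1 (−0.23) for tapetum and MADS16 (−0.89) for stamens and lodicules, none of them called, and CAB2R for green tissue in Co27LT. By single markers, 3 of 7 for meiocytes were called higher and none lower, and 2 of 8 for tapetum were called lower and none higher. In whole inflorescences fewer cells of a type and less RNA per cell cannot be told apart, and the part of these marker shifts in the results that follow was not tested.

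Ugp1 itself was higher in the fertile state. Its probe set, which may not separate the transcript of the construct from that of the endogenous gene, gave log2 signals of 12.91, 12.89 and 12.86 in Co27LT, against 11.36, 11.39 and 11.44 in Co27HT. The groups did not overlap, and the difference of 1.49 (SE 0.07) had an adjusted p of 1.2e-06 in limma with Benjamini-Hochberg adjustment over all 57258 probe sets. In H1493 the values were 13.62, 13.64 and 13.57 in H1493LT, against 13.42, 13.43 and 13.36 in H1493HT, a difference of 0.20. All 6 arrays of TGMS-Co27 lay below all 6 arrays of H1493. The difference was larger in TGMS-Co27 than in H1493 by 1.29 (SE 0.10, adjusted p = 0.0011).

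A probe set was called when its adjusted p in the limma fit was under 0.05 and its fold change was at least 2. Between Co27LT and Co27HT, 4037 probe sets (7.05% of those tested) were called higher and 4179 (7.30%) lower. With an unadjusted p in place of the adjusted one, 10415 probe sets (18.2%) passed. Among the bright probe sets 3350 (13.5%) were higher in Co27LT and 2653 (10.7%) were lower, and the arrays of the groups overlapped in 3 of those called higher and in 6 of those called lower. The median log2 difference was 1.43 among the bright probe sets called higher and −1.49 among those called lower, with a median SE of 0.15 in both.

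The lower side reached further. A change of at least 8-fold was seen in 129 bright probe sets called higher and 217 called lower, and a change of at least 32-fold in 13 called higher and 37 called lower. The share of higher calls depended on the scaling: it was 55.8% of the bright calls with the deposited values, 53.5% after quantile normalization and 75.2% (5200 higher and 1712 lower) after the arrays were centred on their medians, which moved every log2 difference up by 0.28. Probe sets just under the brightness limit included SAUR39, with a mean of 5.996 and a difference of −3.23, and PMM, with a mean of 5.995 and a difference of 1.62, and those just above it included CML11, with a mean of 6.005 and a difference of −0.72.

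**Figure D1:**
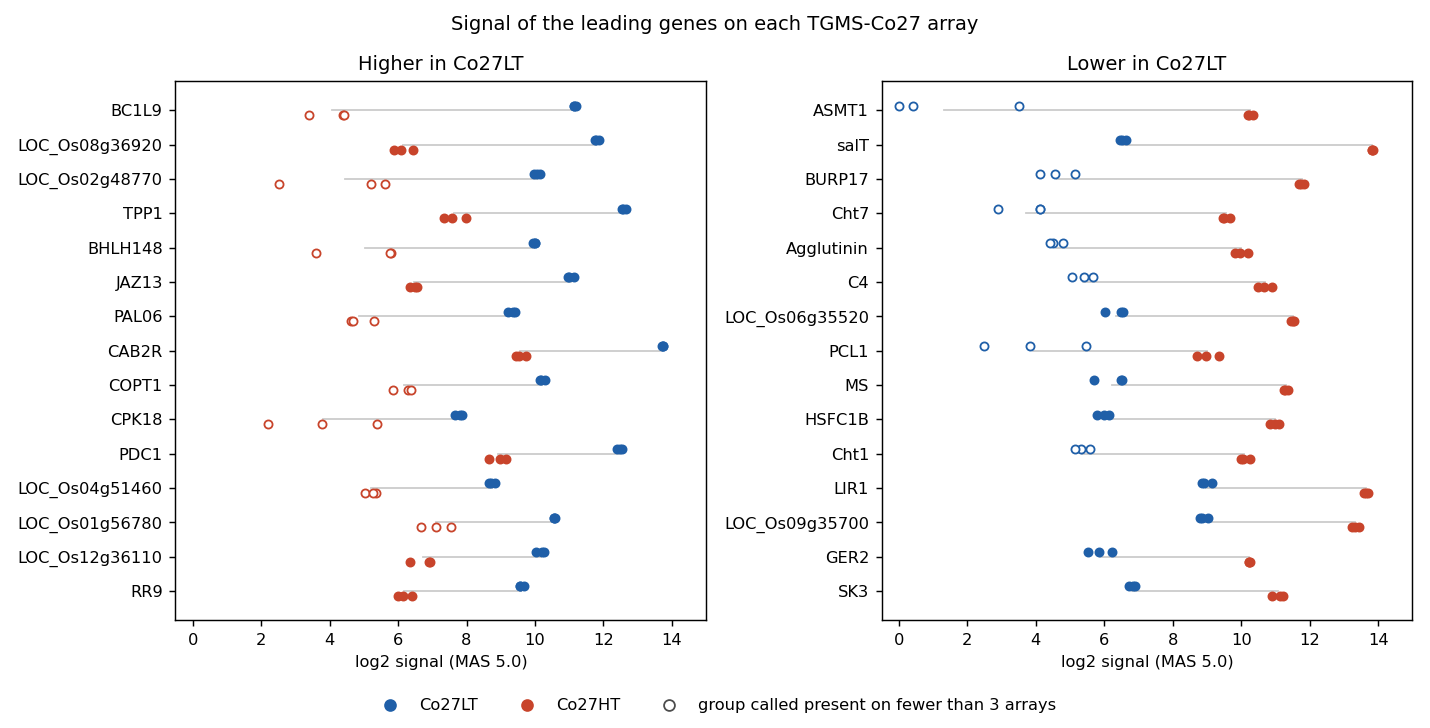
Log2 signal on each of the 6 TGMS-Co27 arrays, Co27LT in blue and Co27HT in red, for the 15 described genes with the largest increase and the 15 with the largest decrease in Co27LT; open circles mark a group that was called present on fewer than 3 arrays. The arrays of Co27LT and Co27HT stand apart for every gene shown, with log2 differences of 3.41 for RR9, the smallest increase drawn, and −4.26 for SK3, the smallest decrease drawn; where a group was absent on all 3 of its arrays, its points bound the difference but do not give its size.

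Among described genes the largest increase in Co27LT was in BC1L9 (LOC_Os10g35460). It encodes a COBRA-like protein of the family that anchors to the membrane and takes part in cellulose assembly. One of its probe sets gave 13.04, 13.03 and 13.08 in Co27LT, against 6.86, 7.17 and 7.0 in Co27HT. All 3 low-temperature arrays were far above the 3 high-temperature arrays, and the difference was 6.04 (SE 0.10, adjusted p = 1.4e-08). Its other probe set differed by 4.46 in H1493. In TGMS-Co27 that probe set was absent on all 3 Co27HT arrays and was at least 121-fold higher in Co27LT. Such a bound, here and below, sets the mean of the bright group against the mean over the arrays of the dim group of the higher of the probe set's own signal and the lowest signal called present on that array.

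TPP1, a trehalose-6-phosphate phosphatase, gave 12.55, 12.65 and 12.56 in Co27LT, against 7.56, 7.34 and 7.99 in Co27HT, a difference of 4.96 (SE 0.17, adjusted p = 2e-07). JAZ13, a repressor of jasmonate signalling, gave 11.137, 11.002 and 10.973 in Co27LT, against 6.356, 6.562 and 6.495 in Co27HT, a difference of 4.57 (SE 0.13, adjusted p = 8.1e-08). LOC_Os08g36920, which encodes a protein with an AP2 DNA-binding domain, gave 11.86, 11.78 and 11.75 in Co27LT, against 6.09, 6.44 and 5.89 in Co27HT. In all 3 genes the Co27LT arrays were within 0.2 of each other and the groups were separated by more than 3.

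CAB2R, a chlorophyll-binding protein of the light-harvesting antenna, gave 13.73, 13.70 and 13.73 in Co27LT, against 9.73, 9.54 and 9.44 in Co27HT, a difference of 4.15 (SE 0.12, adjusted p = 1.1e-07). PAL06, a phenylalanine ammonia-lyase at the entry to phenylpropanoid synthesis, gave 9.69, 9.66 and 10.04 in Co27LT, against 5.61, 5.98 and 5.16 in Co27HT, and its 2 probe sets differed by 4.21 and 4.46. The copper transporter gene COPT1 was absent on all 3 Co27HT arrays and at least 16.4-fold higher in Co27LT. In H1493 COPT1 differed by 4.48 in the same direction. PDC1, a pyruvate decarboxylase of fermentation, gave 12.54, 12.40 and 12.49 in Co27LT, against 8.97, 8.64 and 9.16 in Co27HT.

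Among other genes with large increases, LOC_Os02g48770, a carboxyl methyltransferase, was absent in Co27HT and at least 40.0-fold higher in Co27LT (adjusted p = 0.00037). The transcription factor gene BHLH148 gave 10, 10 and 9.94 in Co27LT, against 3.60, 5.78 and 5.76 in Co27HT, where 1 of 3 arrays called it present. RR9, a type A response regulator of cytokinin signalling, differed by 3.41 (SE 0.15). CPK18, a calcium-dependent kinase, differed by 3.99 with one probe set and by 0.78, which was not called, with its brighter one.

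Among the described genes that were lower in Co27LT, the jacalin-type lectin gene salT gave 6.65, 6.50 and 6.46 there, against 13.81, 13.81 and 13.84 in Co27HT. This was a difference of −7.29 (SE 0.15, adjusted p = 1.4e-08), or 156-fold, with no overlap between the groups. ASMT1, the methyltransferase that forms melatonin from N-acetylserotonin, was absent on all 3 Co27LT arrays, gave 10.22, 10.34 and 10.21 in Co27HT, and was at least 125-fold lower in Co27LT (adjusted p = 9.3e-05). BURP17, of the BURP domain family, was absent in Co27LT, gave 11.76, 11.83 and 11.70 in Co27HT, and was at least 142-fold lower in Co27LT. In H1493, which is fertile in both environments, ASMT1 differed by −7.68 and BURP17 by −7.60. Neither was called present on an H1493LT array, so the size of these H1493 differences is not exact.

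LIR1, a light-regulated protein of the chloroplast, gave 8.85, 9.15 and 8.90 in Co27LT, against 13.59, 13.69 and 13.63 in Co27HT (difference −4.67, SE 0.10, adjusted p = 1.4e-08). HSFC1B, a class C heat stress transcription factor, gave 6.15, 5.79 and 6.00 in Co27LT, against 11.12, 10.98 and 10.83 in Co27HT (difference −5.0, SE 0.16). These genes were at moderate or high level in every Co27HT sample, and no Co27LT sample approached them. The chitinase gene Cht7 was absent in Co27LT and at least 50.2-fold lower there. The lectin gene Agglutinin was absent in Co27LT and at least 42.5-fold lower there. In H1493 Cht7 differed by −3.638 and Agglutinin by −5.685.

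Other large decreases were in Cht1, a chitinase, with a difference of −4.75, in the peroxidase gene LOC_Os06g35520, with −5.15, and in SK3, a shikimate kinase, with −4.26. LOC_Os09g35700, which encodes a lipid transfer protein-like protein, gave 8.81, 9.02 and 8.85 in Co27LT, against 13.44, 13.31 and 13.25 in Co27HT. A second probe set of the same locus differed by −0.29 and was not called, so the probe sets disagreed.

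To describe gene groups, each gene was taken at its brightest probe set on average. Of 17905 genes so represented, 1907 (10.7%) were higher in Co27LT and 1912 (10.7%) were lower, with a median difference of −0.02 over all of them. The groups below, 48 lists with 1024 genes in all, are read against these values, which describe the groups but do not test them. After median centring the median over all genes was 0.27, and group medians are read relative to that shift.

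**Figure D2:**
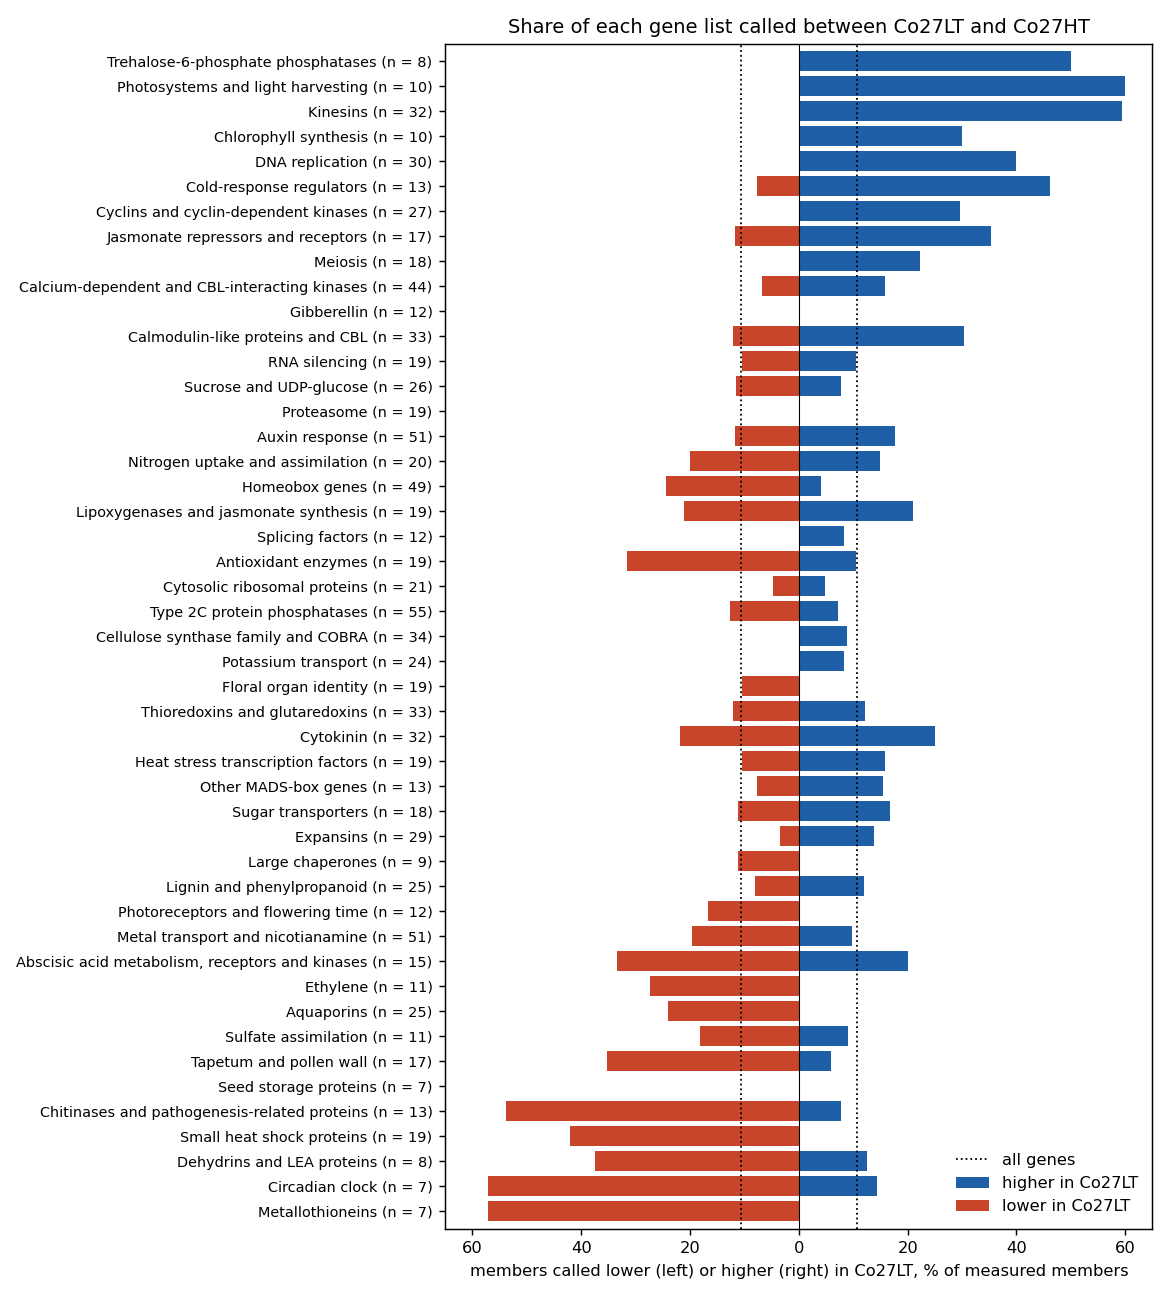
Percent of the measured members of each gene group called higher (bars to the right) or lower (bars to the left) in Co27LT than in Co27HT, for groups of 7 or more genes; dotted lines give the same shares for all genes, 10.7% in each direction. Kinesins, DNA replication and photosystem genes were called in the upward direction only, and small heat shock proteins, aquaporins and metallothioneins in the downward direction only.

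Of 30 measured DNA replication genes, 12 were called higher in the fertile state, none was lower and 18 were not called, with a median difference of 0.76. The members that license replication origins accounted for 8 of these among 13, with a median of 1.19, and the members that work at the fork for 4 of 17, with a median of 0.44. MCM6, a subunit of the replicative helicase, gave 10.72, 10.72 and 10.69 in Co27LT, against 8.42, 8.67 and 8.82 in Co27HT (difference 2.08, SE 0.11, adjusted p = 1.8e-06).

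MCM5, of the same helicase, gave 11.82, 11.85 and 11.85 in Co27LT, against 9.83, 9.74 and 9.76 in Co27HT (difference 2.06, SE 0.08). The other called helicase subunits were MCM4 (1.79), MCM3 (1.64), MCM2 (1.59) and MCM7 (1.41), so that all 6 subunits MCM2 to MCM7 rose by a log2 difference of more than 1.4. ORC1, of the origin recognition complex, rose by 1.19 and the sliding clamp gene PCNA by 1.10. In H1493 the list gave 13 genes higher and none lower.

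The kinesins are microtubule motors, of which many act in the spindle and the division plane. Of 32 measured, 19 were higher in Co27LT and none lower, with a median of 1.26. KIN12E gave 10.45, 10.43 and 10.47 in Co27LT, against 7.44, 7.48 and 7.61 in Co27HT (difference 2.94, SE 0.12, adjusted p = 5e-07). KIN14Q gave 9.96, 9.86 and 9.92 in Co27LT, against 7.49, 7.29 and 6.80 in Co27HT (difference 2.73, SE 0.17).

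In both motors the lowest Co27LT array was more than 2 above the highest Co27HT array. The other called kinesins ran from KIN7C (1.05) to KIN14E (2.19), and the 13 that were not called ran from KIN14M (−0.65) to KIN4A (0.98). In H1493 16 kinesins were higher in H1493LT and 1 was lower.

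Cyclins moved less uniformly. Of 27 cyclins and cyclin-dependent kinases, 8 were higher and none lower, with a median of 0.60, and with quantile normalization 5 were higher. The A and B cyclins, which act from replication to mitosis, had 4 of 7 higher, CycB1-1 (1.54, SE 0.15, adjusted p = 5.7e-05), CYCB2-2 (1.30), CYCA2-1 (1.26) and CYCB2-1 (1.11). Of the D cyclins, which act at the start of the cycle, CYCD3-1 (1.24), CYCD5-3 (1.11) and CYCD4-2 (1.0) were higher among 9, and CDKG-1 (1.07) was the only called kinase among 11.

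The opposite direction was seen in inhibitors of cyclin-dependent kinases, of which 2 of 6 were lower and none higher. KRP6 (LOC_Os09g28580), of the family that binds and blocks the kinase, gave 7.33, 6.81 and 6.76 in Co27LT, against 10.90, 10.97 and 10.83 in Co27HT. It was more than 3 lower in each low-temperature array than in any high-temperature array (difference −3.93, SE 0.17, adjusted p = 5.6e-07). SMR1, of a plant-specific inhibitor family, was lower by a difference of −1.17 (SE 0.10), which was no longer past 2-fold after median centring. In H1493 the differences of these genes were −3.64 for KRP6 and −1.14 for SMR1.

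**Figure D3:**
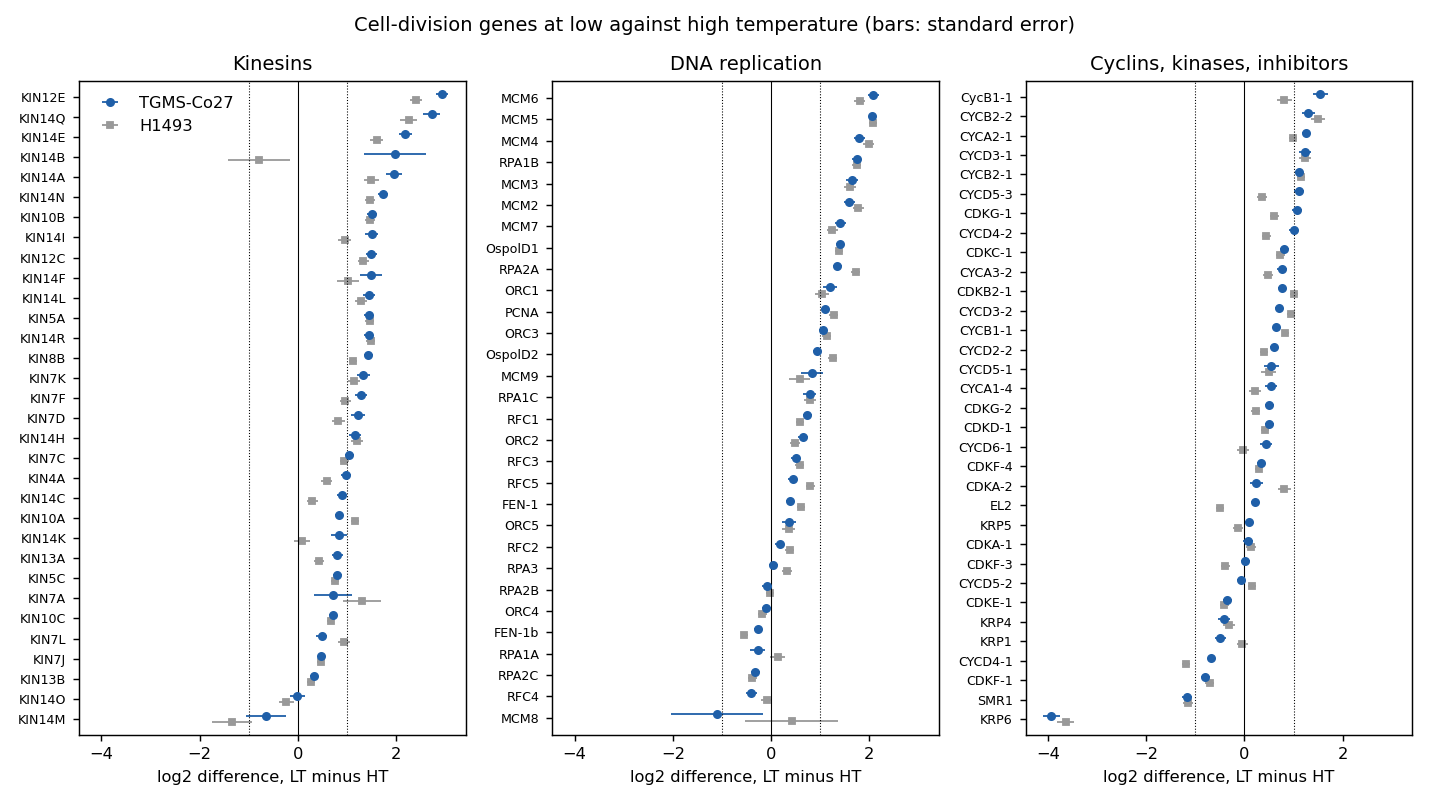
Log2 difference between low and high temperature, with its SE, in TGMS-Co27 (circles) and in H1493 (grey squares) for kinesins, DNA replication genes, and cyclins, cyclin-dependent kinases and their inhibitors; dotted lines mark a 2-fold change. KIN12E stands highest in TGMS-Co27 at 2.94, and KRP6 stands far below the others at −3.93 in TGMS-Co27 and −3.64 in H1493.

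Of 18 measured meiosis genes, 4 were higher in Co27LT and none was lower, with a median of 0.49. EME1, which encodes a protein of a DNA junction-cutting nuclease, gave 11.57, 11.56 and 11.65 in Co27LT, against 9.58, 9.59 and 9.79 in Co27HT (difference 1.94, SE 0.10, adjusted p = 1.3e-06). MER3, a helicase needed for crossovers, gave 8.38, 8.21 and 8.10 in Co27LT, against 6.57, 6.60 and 6.44 in Co27HT (difference 1.69, SE 0.18). MSH5, of the complex that stabilises crossover intermediates, differed by 1.29 (SE 0.14).

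PAIR1, needed for homologous pairing, was absent on all 3 Co27HT arrays and differed by 1.68 (SE 0.39, adjusted p = 0.0093). When limma was fitted to only the 6 arrays of TGMS-Co27, its adjusted p was 0.06 and the call was lost. The remaining 14 genes were not called. They included the strand-exchange gene DMC1 (−0.21), the break-forming genes SPO11-4 (0.89) and SPO11-2 (−0.70), and the chromosome axis gene ASY1 (0.71). Meiosis genes in H1493 gave 2 calls higher and none lower.

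Tapetum and pollen wall genes were mostly not higher in the fertile state. Of 17 measured, 1 was higher and 6 were lower, with a median of −0.83, and with quantile normalization none was higher and 4 were lower, with median centring 1 higher and 3 lower. C4, a lipid transfer protein gene of the anther, gave 5.42, 5.68 and 5.07 in Co27LT, against 10.91, 10.66 and 10.48 in Co27HT (difference −5.29, SE 0.20, adjusted p = 3.6e-07). Its values in H1493 were 6.50, 5.86 and 6.19 in H1493LT, against 11.16, 11.26 and 11.34 in H1493HT, so the high-temperature level of this gene was present in the fertile cultivar too.

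TDR, a transcription factor that drives tapetum breakdown, gave 6.93, 7.22 and 7.17 in Co27LT, against 8.90, 8.92 and 8.89 in Co27HT (difference −1.80, SE 0.17, adjusted p = 4.4e-05). CYP703A3, a fatty acid hydroxylase for pollen wall precursors, gave 5.75, 5.47 and 5.63 in Co27LT, against 7.13, 6.83 and 7.71 in Co27HT (difference −1.60, SE 0.26). MTR1, a secreted protein for tapetum and microspore development, was the member called higher, with 10.56, 10.78 and 10.67 in Co27LT, against 9.53, 9.48 and 9.62 in Co27HT (difference 1.12, SE 0.11, and 0.99 with quantile normalization).

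Other regulators of this group were not called, among them EAT1 (−0.83), GAMYB (−0.04) and MSP1 (−0.23). TDL1A, the ligand of the MSP1 receptor, was lower by a difference of −1.09, and without Co27LT replicate 1 the difference was −0.92 and the call was lost. The remaining members called lower, the cysteine protease gene CP1 (−2.43) and the tapetum gene RTS (−2.71), were dim, with at most 1 array of a group called present. The tapetum marker sum stood lower in Co27LT as given above, and its part in these differences was not tested.

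Floral organ identity genes differed little. Of 19 measured, 2 were lower and none higher, with a median of −0.14. MADS3, a stamen and carpel identity gene, gave 7.39, 7.72 and 7.60 in Co27LT, against 8.41, 8.79 and 8.78 in Co27HT (difference −1.09, SE 0.13), and without Co27LT replicate 1 the difference was −1.0 and no longer reached 2-fold. The ovule identity gene MADS13 gave 7.41, 7.51 and 7.61 in Co27LT, against 8.82, 8.80 and 8.70 in Co27HT (difference −1.26, SE 0.11). Neither was called after median centring.

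The lodicule and stamen gene MADS16 (−0.89), the lemma and palea gene Lhs1 (−0.17), MADS6 (−0.14) and DL (−0.01), which specifies the carpel, were not called. MADS14 gave 11.94, 11.87 and 11.90 in Co27LT, against 11.90, 11.82 and 12.06 in Co27HT with its brightest probe set.

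Clock genes showed some of the widest contrasts in both directions. Their level changes over the day, the study does not state the hour of harvest at either site, and its part in these values was not tested. Of 7 measured, 1 was higher and 4 were lower. LHY (LOC_Os08g06110), a MYB protein of the morning loop, gave 13.94, 13.90 and 13.97 in Co27LT, against 10.64, 10.84 and 10.90 in Co27HT (difference 3.14, SE 0.09, adjusted p = 8.1e-08). GI, an evening gene that links the clock to flowering, gave 9.85, 9.61 and 9.68 in Co27LT, against 13.02, 12.98 and 13.04 in Co27HT (difference −3.30, SE 0.09, adjusted p = 8.1e-08).

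PCL1, of the evening complex, was absent on all 3 Co27LT arrays, gave 8.97, 9.35 and 8.70 in Co27HT, and was at least 27.3-fold lower in Co27LT. The pseudo-response regulators PRR1 (−1.53) and PRR95 (−1.34) were lower, and PRR73 (0.17) and PRR37 (0.73) were not called. LHY was higher and GI lower in H1493LT than in H1493HT also, and both differences were smaller in H1493 by the test of the line-by-temperature value, at 1.15 (adjusted p = 0.0053) for LHY and −1.06 (adjusted p = 0.0098) for GI. After median centring the value for GI was −0.955 and was not called.

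Of 12 photoreceptor and flowering-time genes, 2 were lower and none higher. The red light receptor gene PHYA gave 11.38, 11.36 and 11.30 in Co27LT, against 13.04, 13.09 and 13.12 in Co27HT (difference −1.74, SE 0.07). HO1, the haem oxygenase that makes the phytochrome pigment, gave 9.24, 9.23 and 9.38 in Co27LT, against 11.36, 11.23 and 11.20 in Co27HT (difference −1.98, SE 0.10). PhyB (−0.36), phyC (−0.88), Hd1 (0.15) and the florigen gene Hd3a (−0.60) were not called.

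Photosynthesis genes were called in 1 direction in both of their lists. Of 10 photosystem and light-harvesting genes, 6 were higher and none lower, with a median of 1.30, and of 10 chlorophyll synthesis genes 3 were higher and none lower, with a median of 0.80. After CAB2R, the largest differences were in PSB28, a photosystem II assembly factor (2.19, SE 0.15), and the antenna protein genes RCABP89 (1.85, SE 0.11) and RCABP69 (1.45). CHLP, which supplies the phytol tail of chlorophyll, gave 11.88, 11.94 and 11.92 in Co27LT, against 9.94, 9.98 and 9.95 in Co27HT (difference 1.96, SE 0.07), and the protochlorophyllide reductase gene PORA gave 11.58, 11.57 and 11.60 in Co27LT, against 9.86, 9.67 and 9.64 in Co27HT.

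These shifts stood beside the higher sum of green tissue markers in Co27LT, which shares CAB2R and PORA with the lists. The green markers did not all move one way. OsrbcS, the small subunit of the carbon-fixing enzyme Rubisco, gave 8.51, 8.67 and 8.61 in Co27LT, against 10.08, 10.26 and 10.09 in Co27HT (difference −1.55, SE 0.12, adjusted p = 1.1e-05).

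Regulators of the cold response were called higher in 6 of 13 cases and lower in 1, with a median of 0.70. DREB1A (LOC_Os09g35030), an AP2 factor that activates cold-response genes, gave 10.12, 10.05 and 10.18 in Co27LT, against 6.88, 7.08 and 6.73 in Co27HT (difference 3.21, SE 0.16, adjusted p = 1.1e-06). MYB4, a MYB factor linked to cold and freezing tolerance, gave 11.51, 11.45 and 11.36 in Co27LT, against 9.32, 9.05 and 9.28 in Co27HT (difference 2.23, SE 0.10). DREB2A, of the drought and heat branch, was higher by 1.18 (SE 0.15) and DREB2B lower by a difference of −1.05, a call that was lost after median centring.

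The same family held members that were not called: DREB1B (0.27), DREB1C (0.05) and DREB1E (0.68). DREB1C, which the study names beside DREB1A, was absent on all 12 arrays, so its value sets background signals against each other. DREB1G, with a mean under 6 over the 12 arrays, gave 8.51, 8.66 and 8.62 in Co27LT, against 5.73, 5.04 and 6.07 in Co27HT (difference 2.98, SE 0.83). MYB3R-2 (1.05) and MYB2 (1.03) were close to the 2-fold limit. Without Co27HT replicate 1 MYB3R-2 stood at 0.96, and MYB2 stood at 0.95 without Co27HT replicate 2, 0.99 without Co27HT replicate 3 and 0.90 without Co27LT replicate 2, which ended those calls. In H1493 the list had 1 member higher and 3 lower, with a median of −0.73.

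Trehalose-6-phosphate phosphatases, which make trehalose, were higher in 4 of 8 cases and lower in none, with a median of 1.47. TPP7 (LOC_Os09g20390) gave 11.94, 11.97 and 11.95 in Co27LT, against 9.60, 9.43 and 9.39 in Co27HT (difference 2.48), and TPP2 gave 9.79, 9.97 and 9.84 in Co27LT, against 7.96, 8.19 and 7.59 in Co27HT (difference 1.95, SE 0.15). TPP1 has been given above, and TPP3, a dim member absent in Co27HT, differed by 2.65 (SE 0.81).

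Dehydrins and related late embryogenesis proteins, which protect cells that lose water, leaned downward but did not all move together. Of 8 measured, 1 was higher and 3 were lower, with a median of −1.31. In H1493 1 was higher and 6 were lower. Dhn1 (LOC_Os02g44870) gave 13.88, 13.84 and 13.75 in Co27LT, against 11.71, 11.70 and 11.57 in Co27HT (difference 2.17, SE 0.08, adjusted p = 2.8e-07). RAB16B gave 7.89, 7.83 and 7.78 in Co27LT, against 10.89, 10.78 and 10.89 in Co27HT (difference −3.02, SE 0.08, adjusted p = 5.9e-08), and rab25 (−3.45) and RAB21 (−1.71) were lower as well.

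Small heat shock proteins, chaperones that hold unfolding proteins, were lower in 8 of 19 cases and higher in none, with a median of −1.10. HSP16.9A gave 7.06, 6.99 and 6.64 in Co27LT, against 10.72, 10.44 and 10.37 in Co27HT (difference −3.61, SE 0.21, adjusted p = 2.9e-06). HSP18.8, absent in Co27LT, gave 9.26, 9.38 and 9.51 in Co27HT (difference −2.31). The other brighter members called lower were HSP23.2 (−2.94), hsp17.9 (−1.88), HSP16.9B (−1.47), HSP18.1 (−1.43) and HSP24.1 (−1.37).

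Among the larger chaperones 1 of 9 was called, CLPB1, a protein-unfolding ATPase, with 7.40, 7.39 and 7.07 in Co27LT, against 9.32, 9.36 and 9.11 in Co27HT (difference −1.98, SE 0.13). The HSP81 genes of the HSP90 family, at 0.49, −0.74 and −0.41, and the endoplasmic reticulum chaperone gene BiP1, at 0.64, were not called. Heat stress transcription factors went both ways, with 3 of 19 higher and 2 lower. HSFB2A gave 9.83, 9.76 and 9.74 in Co27LT, against 7.12, 6.70 and 6.99 in Co27HT (difference 2.84, SE 0.20), opposite to HSFC1B.

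HSFB2C (1.5) and HSFA2C (1.13, SE 0.08) were the other factors called higher, and a second probe set of HSFA2C, absent in Co27HT, was at least 8.96-fold higher in Co27LT. HSFC2A was lower by a difference of −1.18, a call that was lost after median centring and, at −0.97, without Co27HT replicate 1.

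Jasmonate signalling had more calls in TGMS-Co27 than in H1493. Of 17 JAZ repressors, receptors and partners measured, 6 were higher and 2 lower, with a median of 0.58, against 1 higher and 1 lower in H1493, where the median was −0.01. JAZ10 gave 12.63, 12.57 and 12.46 in Co27LT, against 10.03, 9.93 and 10.01 in Co27HT (difference of its representative probe set 2.56). JAZ2 gave 11.23, 11.36 and 11.41 in Co27LT, against 8.89, 8.84 and 9.17 in Co27HT (difference 2.36, SE 0.29), and JAZ6 gave 12.21, 12.04 and 12.13 in Co27LT, against 10.40, 10.45 and 10.52 in Co27HT (difference 1.68, SE 0.10).

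JAZ12 (1.51) and JAZ9 (1.16) were higher too, JAZ8 (−1.22) was lower, and JAZ1, JAZ3, JAZ4, JAZ5, JAZ7 and JAZ11 lay between 0.09 and 0.80 and were not called. The receptor gene COI1B (−1.01) was lower, at −0.97 without Co27HT replicate 2 and −0.96 without Co27LT replicate 3, where the call was lost. Median centring ended the calls of COI1B and JAZ8.

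Enzymes of jasmonate synthesis were split, with 4 of 19 higher and 4 lower. OPR1, an oxophytodienoate reductase, gave 8.81, 8.91 and 8.71 in Co27LT, against 5.96, 6.31 and 6.18 in Co27HT (difference 2.66, SE 0.13), and the allene oxide synthase gene AOS1 gave 10.935, 11.001 and 10.975 in Co27LT, against 9.683, 9.681 and 9.384 in Co27HT (difference 1.39, SE 0.10). The lipoxygenase gene LOX1.1 went the other way, with 5.86, 6.44 and 6.26 in Co27LT, against 10.20, 10.29 and 10.10 in Co27HT (difference −4.01, SE 0.17, adjusted p = 5.8e-07). The other members called lower, AOS3, LOX3 and OPR5, were dim.

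In the cytokinin pathway the response regulators had 5 of 13 higher and 1 lower, with a median of 0.96, while the genes for metabolism, receptors and transfer had 3 of 19 higher and 6 lower, with a median of −0.33. RR9 gave 9.68, 9.56 and 9.55 in Co27LT, against 6.42, 6.01 and 6.14 in Co27HT, and RR1 gave 10.25, 10.19 and 10.20 in Co27LT, against 7.70, 7.96 and 7.21 in Co27HT (difference 2.59, SE 0.23). CKX11, a cytokinin oxidase that breaks the hormone down, gave 10.55, 10.19 and 10.39 in Co27LT, against 12.23, 12.22 and 11.97 in Co27HT (difference −1.76, SE 0.12).

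Abscisic acid genes were called higher in 3 of 15 cases and lower in 5. The paralogous hydroxylase genes that inactivate the hormone moved in opposite directions. ABA8OX1 gave 11.039, 10.997 and 11.116 in Co27LT, against 8.739, 8.453 and 8.517 in Co27HT (difference 2.48, SE 0.10), and ABA8OX2 gave 10.61, 10.51 and 10.67 in Co27LT, against 13.36, 13.30 and 13.17 in Co27HT (difference −2.68, SE 0.09). The kinase gene SAPK10 (−1.63) and the receptor gene PYL11 (−1.36) were lower, and SAPK7 (1.32) was higher.

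Of 55 type 2C protein phosphatases, 4 were higher and 7 lower, with a median of −0.01. PP2C29 was higher by 2.29 (SE 0.20), and PP2C68 was lower by a difference of −2.67 (SE 0.22). Of 51 auxin response genes 9 were higher and 6 lower, among them the repressor genes IAA7 (1.61) and IAA13 (−1.36), the response factor gene ARF10 (1.48) and the auxin-conjugating enzyme gene GH3-8 (1.80). None of 12 gibberellin genes was called in limma at an adjusted p under 0.05 with a 2-fold change, with differences between −0.99 and 0.77. Of 11 ethylene genes 3 were lower, ACO1, which makes ethylene (−1.41), and the transcription factor genes EIL1B (−2.41, absent in Co27LT) and EIL1A (−1.02, and −0.98 and −0.97 without Co27HT replicate 2 and Co27LT replicate 2, which ended the call).

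Calcium sensors were called more often in the upward direction. Of 33 calmodulin-like and CBL genes 10 were higher and 4 lower, with a median of 0.24, against 5 higher and 4 lower in H1493. CML27 gave 11.63, 11.48 and 11.59 in Co27LT, against 8.83, 9.06 and 9.03 in Co27HT (difference 2.59, SE 0.12). CML16 gave 13.29, 13.23 and 13.28 in Co27LT, against 10.94, 10.92 and 10.81 in Co27HT (difference 2.38, SE 0.08), while CML29, absent in Co27LT, gave 9.25, 9.32 and 9.04 in Co27HT (difference −3.08, SE 0.17).

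Of 44 calcium-dependent and CBL-interacting kinases, 7 were higher and 3 lower. CPK21 gave 9.97, 9.80 and 9.99 in Co27LT, against 7.11, 7.07 and 6.91 in Co27HT (difference 2.89, SE 0.14), and CIPK3 gave 12.22, 12.26 and 12.25 in Co27LT, against 10.50, 10.44 and 10.59 in Co27HT (difference 1.73, SE 0.08). CIPK5 (−2.29), CIPK7 (−1.95) and CIPK10 (−1.21, lost after median centring) were the kinases called lower.

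Metallothioneins, small cysteine-rich metal-binding proteins, were lower in 4 of 7 cases and higher in none, with a median of −2.43. MT1A gave 9.58, 9.34 and 9.56 in Co27LT, against 12.40, 12.43 and 12.13 in Co27HT (difference −2.82, SE 0.12, adjusted p = 4.8e-07), and MT-2 gave 9.20, 9.20 and 9.19 in Co27LT, against 11.72, 11.59 and 11.55 in Co27HT (difference −2.43, SE 0.09). MT4A (−2.79) was lower too, and MT1B, dim and absent in Co27LT, gave 8.80, 8.94 and 8.90 in Co27HT. In H1493 5 of the 7 were lower.

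Of 51 metal transport and nicotianamine genes, 5 were higher and 10 lower, and after median centring 5 were higher and 6 lower. COPT1 gave 10.30, 10.14 and 10.19 in Co27LT, against 6.28, 5.85 and 6.39 in Co27HT, and NAS3, a nicotianamine synthase gene, gave 7.67, 7.80 and 7.97 in Co27LT, against 10.26, 10.18 and 10.06 in Co27HT (difference −2.35, SE 0.12). Other members called lower included ZIP2 (−1.84) and ZIP4 (−1.53), of the zinc and iron uptake family, and HMA5 (−1.42), a copper pump. osysl16 (2.07) and Nramp1 (1.48) were higher.

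Defence proteins were lower in 7 of 13 cases and higher in 1, with a median of −1.05. Cht1 gave 5.31, 5.59 and 5.14 in Co27LT, against 10.25, 10.06 and 9.98 in Co27HT, and Cht7 gave 9.47, 9.51 and 9.66 in Co27HT. PBZ1, a pathogenesis-related protein gene, gave 8.42, 8.63 and 8.22 in Co27LT, against 11.23, 10.85 and 10.85 in Co27HT (difference −2.55, SE 0.16), and the chitinase gene Cht6 (1.5) was the member called higher. In H1493 8 of these genes were lower and 1 was higher.

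Aquaporins, the water channels of the plasma membrane and vacuole, were lower in 6 of 25 cases and higher in none, with a median of −0.72. PIP2;2 gave 8.10, 8.26 and 8.24 in Co27LT, against 10.71, 10.81 and 10.84 in Co27HT (difference −2.59, SE 0.11). TIP3;1 gave 8.69, 8.71 and 8.54 in Co27HT and was present on 1 of 3 arrays in Co27LT (difference −4.05, SE 0.31).

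Antioxidant enzymes were lower in 6 of 19 cases and higher in 2. SodCc2, a copper and zinc superoxide dismutase, gave 10.94, 10.91 and 10.94 in Co27LT, against 13.37, 13.36 and 13.25 in Co27HT (difference −2.40, SE 0.08, adjusted p = 2.3e-07). The peroxiredoxin gene R1C-Prx was absent in Co27LT and gave 8.66, 8.57 and 8.43 in Co27HT. The catalase genes CAT-A (−1.46) and CAT-B (−1.25) were lower, the last of them not after median centring.

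In sugar metabolism, 2 of 26 sucrose and UDP-glucose genes were higher and 3 lower, with a median of 0.19. CIN2, a cell wall invertase, gave 11.73, 11.70 and 11.69 in Co27LT, against 9.75, 9.25 and 9.29 in Co27HT (difference 2.28, SE 0.13), and the sucrose synthase gene SUS4 gave 7.76, 7.31 and 7.88 in Co27LT, against 10.59, 10.64 and 10.67 in Co27HT (difference −2.98, SE 0.14). The genes that act on UDP-glucose were mostly not called: UGD3, UGD4 and UGD5, which oxidise it, lay at 0.31, 0.40 and −0.18, and UGE-3, an epimerase, was lower by a difference of −1.33 (SE 0.18).

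In the cell wall lists, 3 of 34 cellulose synthase family and COBRA genes were higher and none lower. These were BC1L9, CESA6, with 12.44, 12.39 and 12.37 in Co27LT, against 11.19, 11.29 and 11.08 in Co27HT (difference 1.21, SE 0.09), and CSLF6 (1.0). CSLF6 was under 2-fold without Co27LT replicate 1 (0.996), without Co27HT replicate 2 (0.919) and without Co27HT replicate 3 (0.987). Of 29 expansins, which loosen walls, 4 were higher and 1 lower, among the higher ones EXP2 (2.03, SE 0.14) and EXLA4 (2.44, SE 0.30). In the phenylpropanoid list 3 of 25 were higher and 2 lower, and 4CL5, which activates coumarate, gave 8.65, 8.82 and 8.96 in Co27LT, against 5.78, 6.33 and 5.95 in Co27HT (difference 2.79, SE 0.17).

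Homeobox genes were lower in 12 of 49 cases and higher in 2, although their median was 0.14. The lower ones were mostly of the homeodomain leucine zipper type. HOX24 gave 5.54, 5.49 and 5.09 in Co27LT, against 9.17, 9.13 and 9.25 in Co27HT (difference −3.81, SE 0.16, adjusted p = 4.7e-07). Hox22 gave 7.48, 7.01 and 7.26 in Co27LT, against 9.83, 9.81 and 9.81 in Co27HT (difference −2.57, SE 0.12), and hox14 gave 9.42, 9.31 and 9.24 in Co27LT, against 12.03, 11.97 and 11.96 in Co27HT (difference −2.67, SE 0.13).

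The members called higher were hox32 (1.04), of the class that patterns leaf and vascular tissue, and HOX33 (1.01, and 0.97 without Co27HT replicate 3, where the call was lost). The shoot meristem gene OSH1 (0.41) was not called. After median centring 7 homeobox genes were higher and 9 lower.

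Nutrient and ion lists were called in both directions or upward. Of 20 nitrogen genes 3 were higher and 4 lower, among them the nitrate reductase gene NIA1 (1.85, SE 0.32) and the glutamate synthase gene GLT2 (−3.15, absent in Co27LT). Of 11 sulfate assimilation genes APRL1, of the reductase-like family, was higher by 2.81 and SAT4 (−2.09) and SAT5 (−1.21) were lower, and of 24 potassium transport genes HAK7 (1.68) and AKT1 (1.5) were higher.

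None of 19 proteasome genes was called at the limma threshold, with differences between −0.54 and 0.57. Of 21 ribosomal protein genes, matched by symbol and not sorted by cell compartment, RPL27 (1.08) was higher and RPL18 (−1.24) lower, with a median of 0.03. Of 12 splicing factor genes U2AF35A (LOC_Os09g31482) was higher, absent in Co27HT and at least 5.5-fold brighter in Co27LT. Of 19 RNA silencing genes 2 were higher and 2 lower, close to the shares over all genes. Those higher were DCL2A with 12.21, 12.11 and 12.24 in Co27LT, against 10.32, 10.47 and 10.46 in Co27HT (difference 1.77, SE 0.11), and DCL4 (1.38), both of which cut double-stranded RNA into small RNAs, while AGO3 (−1.76) and SHL2 (−1.42) were lower.

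The study drew up a candidate list of splicing and translation genes from this comparison, so its direction is not independent evidence. Over the 37 probe sets of 27 loci on it, 31 were called higher in Co27LT, 2 lower and 4 were not called. Of the 33 called, 23 were also called in H1493. None had a called line-by-temperature value. LOC_Os03g02100, a valyl-tRNA synthetase, gave 9.58, 9.48 and 9.70 in Co27LT, against 7.58, 7.66 and 7.49 in Co27HT (difference 2.01, SE 0.19, adjusted p = 4.5e-05), and 6 of the 7 tRNA synthetase probe sets were higher.

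The isoleucyl-tRNA synthetase LOC_Os02g09100 differed by 2.66 with an SE of 1.08 and was not called, since its Co27HT arrays ran from 1.26 to 5.81. LOC_Os08g03450, a ribosomal protein of the L37 family, differed by 2.34 and 2.74 with its probe sets. Those called lower encode splicing factors of the zinc knuckle type, LOC_Os02g39720 (−1.62, SE 0.24) and RSZ21A (−1.02). RSZ21A stood at −0.97 without Co27HT replicate 2 and under 2-fold without Co27LT replicate 1, and its other probe sets differed by −0.84 and 0.87.

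**Figure D4:**
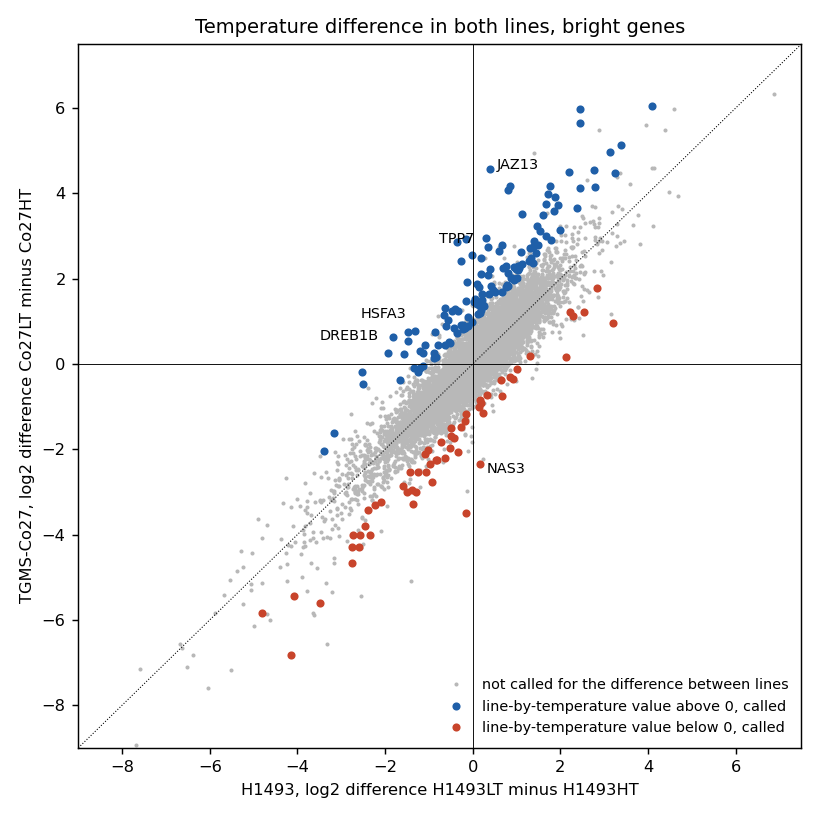
Log2 difference between low and high temperature in TGMS-Co27 (vertical axis) and in H1493 (horizontal axis) for the 14592 bright genes, with the genes called for the line-by-temperature value marked. Most genes lie along the diagonal, and 127 genes called above 0 and 57 called below 0 lie away from it.

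The growth conditions moved most of the same genes in H1493. Of the genes by representative probe set, H1493LT had 1432 (8.0%) higher and 1778 (9.93%) lower than H1493HT. Of the bright probe sets called higher in Co27LT, 1983 were also called higher in H1493LT, which is 59.2% of those of TGMS-Co27 and 79.7% of those of H1493. Of those called lower, 1930 were also lower in H1493LT, 72.8% of those of TGMS-Co27 and 79.7% of those of H1493. The arrays of the lines are separate, but both comparisons share the growth conditions.

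The line-by-temperature value is the difference in TGMS-Co27 minus the difference in H1493, and it was called with an adjusted p under 0.05 and a size of at least 1. It was called above 0 for 226 probe sets (0.395%) and below 0 for 112 (0.196%), and among the bright probe sets for 192 (0.771%) above and 85 (0.341%) below. Of the bright probe sets called between Co27LT and Co27HT, 142 called higher and 58 called lower had a called value of the same sign, so that their change was larger in TGMS-Co27.

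**Figure D5:**
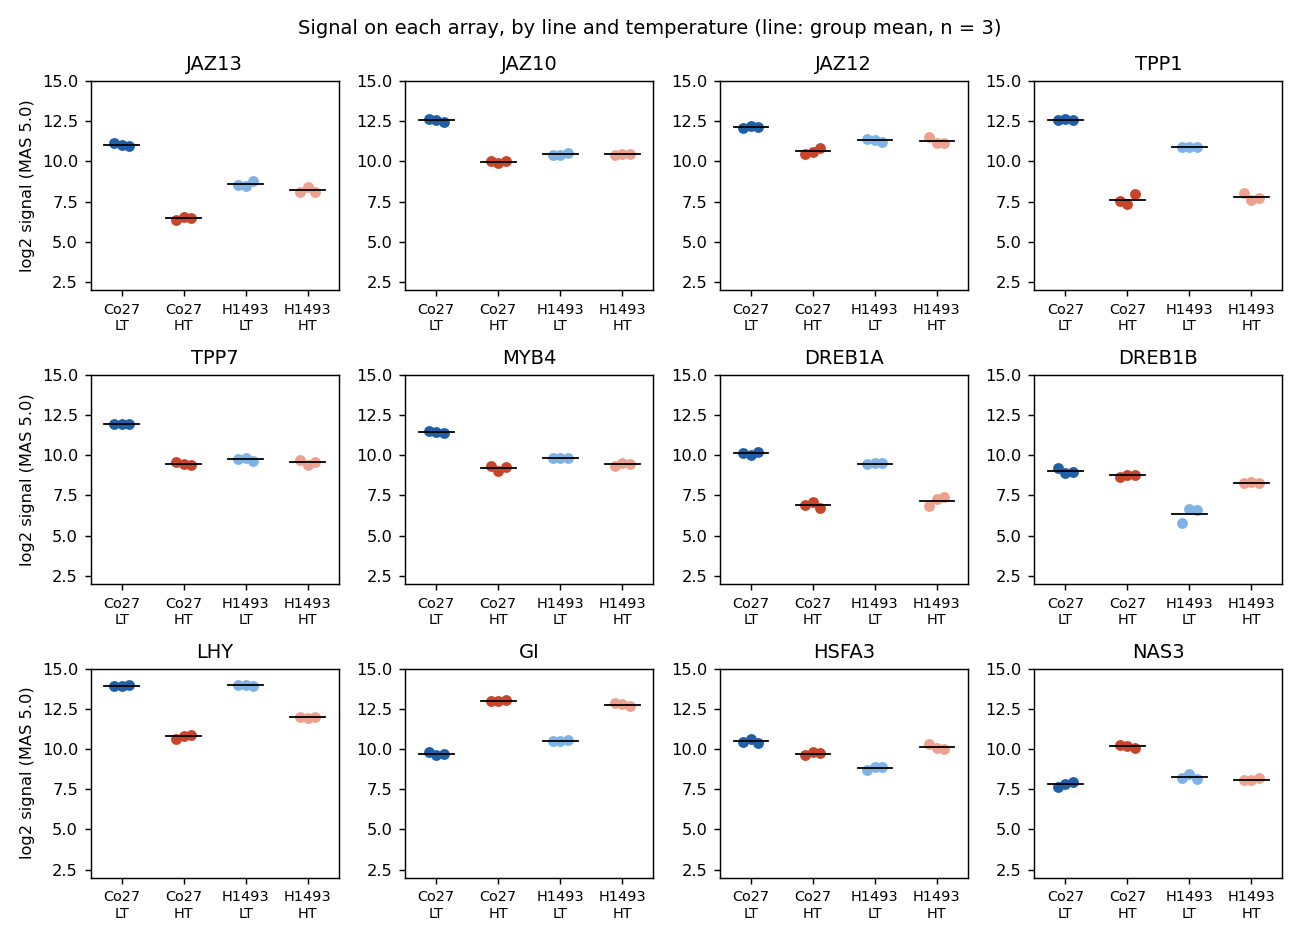
Log2 signal on every array in Co27LT, Co27HT, H1493LT and H1493HT for 12 genes, with a line at each group mean. TPP7 and JAZ10 are high in Co27LT only, and NAS3 is high in Co27HT only, while DREB1B and HSFA3 are low in H1493LT. JAZ13 is highest in Co27LT and lowest in Co27HT, with both H1493 groups between them.

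JAZ13 had the largest value among described genes. Its H1493 arrays gave 8.56, 8.44 and 8.80 in H1493LT, against 8.11, 8.41 and 8.12 in H1493HT, between the Co27LT and Co27HT levels given above, and the line-by-temperature value was 4.18 (SE 0.18, adjusted p = 0.00012). JAZ10 gave 10.43, 10.40 and 10.52 in H1493LT, against 10.43, 10.49 and 10.47 in H1493HT (value 2.62), so Co27LT stood about 2 above the other groups. TPP7 gave 9.78, 9.81 and 9.62 in H1493LT, against 9.69, 9.39 and 9.57 in H1493HT (value 2.29, adjusted p = 0.00059), the same arrangement.

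Other genes were called higher in both lines at low temperature but by more in TGMS-Co27. LOC_Os08g36920 had 9.77, 9.68 and 9.58 in H1493LT, against 6.94, 7.08 and 7.66 in H1493HT (value 3.20, SE 0.28). BC1L9 had a value of 2.62 with one probe set and 1.96 with the other, TPP1 of 1.82, CAB2R of 1.36 with one probe set and −0.08, which was not called, with the other, and LOC_Os04g51460, a glycosyl hydrolase, of 2.39. Neither MYB4 nor 4CL5 was called in H1493. MYB4 gave 9.82, 9.85 and 9.81 in H1493LT, against 9.32, 9.54 and 9.43 in H1493HT (value 1.83), and 4CL5 had a value of 2.11.

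A different arrangement was seen in DREB1B and HSFA3, where neither gene was called in TGMS-Co27. DREB1B gave 9.18, 8.91 and 8.97 in Co27LT, against 8.67, 8.79 and 8.80 in Co27HT, and 5.78, 6.64 and 6.60 in H1493LT, against 8.25, 8.34 and 8.24 in H1493HT (value 2.20, SE 0.30, adjusted p = 0.013). HSFA3, a heat stress factor gene, gave 10.46, 10.62 and 10.38 in Co27LT, against 9.64, 9.79 and 9.73 in Co27HT, and 8.71, 8.86 and 8.87 in H1493LT, against 10.31, 10.04 and 10.01 in H1493HT (value 2.08).

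Values below 0 were led by NAS3, at −2.51 (SE 0.17, adjusted p = 0.00059). Its H1493 arrays gave 8.19, 8.43 and 8.16 in H1493LT, against 8.05, 8.07 and 8.19 in H1493HT, so Co27HT alone stood above the other groups by about 2. LOC_Os01g01660, an isoflavone reductase-like gene, gave 8.89, 8.97 and 8.93 in Co27LT, against 8.95, 8.90 and 8.44 in Co27HT, and 10.60, 10.45 and 10.67 in H1493LT, against 8.35, 8.47 and 8.54 in H1493HT (value −1.95, SE 0.20). In this gene the low-temperature rise of H1493 was not seen in TGMS-Co27.

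In the jasmonate repressor list 6 of 17 genes had a called value above 0 and none below, and in the cold list 3 of 13 above and none below. The JAZ genes among them included JAZ9, which gave 8.84, 8.64 and 8.69 in H1493LT, against 9.46, 9.37 and 9.27 in H1493HT (value 1.80, SE 0.14, adjusted p = 0.00098), and JAZ12 (1.46). TPP7 and TPP1 were the members of 8 trehalose-6-phosphate phosphatases with a called value. In calcium signalling CPK21 had 1.49, CIPK21 1.30, CML27 1.15 and CML16 1.0, in abscisic acid metabolism ABA8OX1 had 1.14, and HSFA2C, among the heat stress factors, had −1.15. The second probe set of HSFA2C had 1.81 (adjusted p = 0.29), the opposite sign, and was not called. After median centring CPK21, CML16 and ABA8OX1 were no longer called (adjusted p = 0.051, 0.064 and 0.051).

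Over the 41 named probe sets with a called line-by-temperature value, 32 kept the call when each of the 12 arrays was left out in turn and 9 lost it at least once. Those were PP2C15, lost without any 1 of the 12 arrays, PP2C29 (11 arrays), LOX1.1 (10), APRL1 and MYB2 (9 each), HSP16.9B (8), CML16 (7), and CML27 and JAZ6 (3 each). Their adjusted p then reached at most 0.12, for PP2C29, and CML16 and JAZ6 lost the call on size, at 0.96 to 0.998 and 0.938 to 0.991.

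Detection calls gave a further view of the same contrast. On all 3 Co27LT arrays and none of the Co27HT arrays 685 probe sets were present, of which 365 were called higher, and 340 had the reverse pattern, of which 283 were called lower. On all 6 arrays of TGMS-Co27 21620 probe sets were present, and 26046 were present on none.

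Different probe sets of a gene did not always agree. Of 296 genes with at least 2 bright called probe sets, 16 had probe sets called in opposite directions, among them IRL5, a leucine-rich repeat protein gene (LOC_Os10g42190), with 1.11 for one and −1.20 for the other. HSFB2C had 1.5 with its representative probe set and 0.05 with another, and a MADS14 probe set differed by 3.06 while the others lay between −0.43 and −0.02.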

How the data were processed

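Each floret RNA was put on a separate Affymetrix rice GeneChip. The authors deposited the signal of every probe set as log2, computed with MAS 5.0 in Affymetrix's operating software, with detection calls as present, marginal or absent. The methods name quantile normalization, but the arrays do not share 1 distribution, and the values were used as deposited. Both deposited tables hold identical signals. Of 57381 probe sets, 123 controls were left out. The 4 group means were estimated over all 12 arrays with limma 3.58.1 under R 4.3.3 (lmFit and eBayes), and p-values were adjusted by Benjamini-Hochberg over 57258 probe sets. The script was tested on simulated data. Array annotation named exactly 1 gene for 22436 probe sets, several for 95 and none for 34727, and the study's additional files gave descriptions for 1358.

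Genes named are the 15 with the largest called difference in each direction among bright, described genes whose groups did not overlap, up to 6 called members of each list in each direction, the 10 with the largest line-by-temperature value in each direction, those the study names, and cell type markers. Dim members, members not called and genes in counts of 5 or fewer were named besides, after their values were seen. The comparison and the lists were chosen with earlier results of these data known. Alternatives were an unadjusted p, filters on dim or absent probe sets, a floor, quantile normalization, median centring, limma-trend, only 6 arrays, a replicate block and each array left out.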

Additional observations from a re-analysis of the deposited data

Results flagged for a closer look

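The results below were singled out because the difference between low and high temperature was not the same in TGMS-Co27 as in H1493 by the line-by-temperature test of limma, at an adjusted p under 0.05 and a log2 size of at least 1. Values are log2, the difference in TGMS-Co27 minus that in H1493. In the signalling and stress genes, JAZ13 had 4.18, JAZ10 had 2.62 and 2.58 with its probe sets, JAZ9 had 1.80, JAZ12 had 1.46 and JAZ6 had 1.02. DREB1B had 2.20, HSFA3 had 2.08, MYB4 had 1.83, MYB2 had 1.59, HSFA2C had −1.15 with its brighter probe set and HSP16.9B had −1.20. Among genes of hormone breakdown and phosphatases, ABA8OX1 had 1.14, PP2C29 had 1.53, PP2C15 had 1.14 and LOX1.1 had −1.43.

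In calcium signalling, CPK21 had 1.49, CIPK21 had 1.30, CML27 had 1.15 and CML16 had 1.0. In sugar, wall and light-related genes, Ugp1 had 1.29, TPP7 had 2.29, TPP1 had 1.82, BC1L9 had 2.62 and 1.96 with its probe sets, 4CL5 had 2.11, LOC_Os04g51460 had 2.39 and CAB2R had 1.36 with one of its probe sets. LHY had 1.15 and GI had −1.06 among the clock genes, and LOC_Os08g36920 had 3.20. Among transporters and enzymes, HAK7 had 1.18, GRXS5 had 1.22, NAS3 had −2.51, APRL1 had −1.27, LOC_Os01g01660 had −1.95, LOC_Os08g41880 had −1.49, LOC_Os08g20730 had −1.39, LOC_Os05g35266 had −1.30, LOC_Os07g34570 had −1.27 and LOC_Os09g35700 had −1.68. No explanation of these differences was tested.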

How the results depend on the processing

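No called value of a named probe set changed sign under an alternative that was run. This outcome was close to fixed in advance and is no sign of stability. Called values were at least 1 in size, and median centring moved every difference by 0.28. The balance of calls did turn. Lower calls outnumbered higher ones with the deposited values (4179 against 4037), and higher ones outnumbered lower ones with quantile normalization (4253 against 3712). The medians of 8 of 48 lists turned from below to above 0 under median centring, among them floral organ identity (−0.14 to 0.14), cytokinin (−0.19 to 0.09) and thioredoxins and glutaredoxins (−0.17 to 0.11), and that of the cellulose synthase family and COBRA (−0.02 to 0.02) also under quantile normalization. Of the 41 named probe sets with a line-by-temperature call, median centring ended 11 (PP2C29, PP2C15, ABA8OX1, APRL1, LOC_Os05g35266, CPK21, CML16, HSP16.9B, MYB2, LOX1.1 and GI). The replicate block ended 13 (PP2C29, PP2C15, JAZ12, JAZ6, APRL1, LOC_Os05g35266, CPK21, CML27, HSP16.9B, MYB2, LOX1.1, DREB1B and CAB2R), and quantile normalization 3 (PP2C29, PP2C15 and GI). Of the 331 named probe sets, 299 kept their side of the threshold between Co27LT and Co27HT under median centring and 311 under quantile normalization. List medians moved beyond the replicate spread in 42 of 48 lists under median centring and 17 under quantile normalization. Median centring adds the same 0.28 to every list median, so the moves and turns under it follow from that shift. The cause of the moves under quantile normalization was not tested.

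Median centring gave 6200 probe sets called higher and 2708 called lower in Co27LT, and bright probe sets alone gave 2726 called lower. Leaving out 1 array gave 7590 to 8137 calls between Co27LT and Co27HT in place of 8216. The line-by-temperature count of 338 became 2826 with an unadjusted p (1278 above 0 and 1548 below), 515 over bright probe sets alone (179 below), 526 over those present on at least 3 of 6 arrays (347 and 179), 514 with a floor at 5 (341 and 173), 587 with limma-trend (359 and 228), and 45 were below 0 after median centring. Fewer or brighter probe sets in the adjustment are part of the filters' own construction. With each array left out it ran from 222, without H1493LT replicate 3, to 372 (146, without Co27LT replicate 1, to 269 above 0, and 65, without H1493LT replicate 3, to 103 below). The 6-array fit gives no line-by-temperature value.

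Replicate numbers are shared between groups. Same-numbered arrays of Co27LT and Co27HT deviated from their group means with correlations of 0.034, −0.008 and 0.022 over bright probe sets. For arrays with different numbers the correlations ran from −0.035 to 0.013. Values this small gave no clear sign of pairing, but deviations from means of 3 arrays cannot exclude it. The main fit did not pair samples. With the replicate block 3983 probe sets were higher and 4097 lower in Co27LT, and 177 had a line-by-temperature call (125 above 0 and 52 below).

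Dim probe sets, under a log2 signal of 6, give differences whose size is not exact, and 3 arrays a group limit all of them.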
